A study of Mus musculus with 10 samples.

Results

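The genes described here, 10 members of the cytosolic heat shock system, were followed across a mouse brain study of perinatal protein restriction. They were taken by gene symbol and matched to Ensembl gene IDs, and all 10 were found among the 47729 genes of the count table. The heat shock protein 70 (HSP70) branch was represented by the inducible HSP70 genes Hspa1a and Hspa1b, the constitutive HSP70 gene Hspa8, its J-domain partner Dnajb1 and its nucleotide exchange factor Hsph1. The HSP90 branch was represented by Hsp90aa1 and Hsp90ab1, small heat shock proteins by Hspb1, and the regulator of the whole response by Hsf1. The remaining gene, Hspe1, encodes the co-chaperonin of mitochondrial HSP60, so its product works in the mitochondrial matrix and not in the cytosol. RNA sequencing libraries came from prefrontal cortex (PFC), hippocampus (HIP) and hypothalamus (HYP) of CF1 mice at postnatal day 56. In the low-protein (LP) group the parents were fed a low-protein diet from mating on and the dams stayed on it through pregnancy and lactation. In the normal-protein (NP) group the parents were on a normal-protein diet over the same time. Offspring of both groups were weaned at postnatal day 21 and then lived for 5 weeks on the normal-protein diet, so the LP mice were not protein restricted when the tissue was taken.

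There was 1 library for each region, sex and diet, with both sexes in PFC and HIP and only males in HYP, which gave 10 libraries: 5 LP and 5 NP. The labels do not say whether each library was 1 animal or a pool, nor whether regions came from the same animals, so p-values measure the spread between these libraries, which may be partly technical. If regions came from the same animals, the pairs of a sex would not be independent of each other. The tests and the counts of pairs below treat them as independent. Apart from the running number and leading zeros, all libraries share the same sample code except male LP HYP. What the code stands for is not given, and in the male HYP pair it cannot be told apart from diet. Total counts were 7871010 in the female NP hippocampus library and 10256882 to 16265481 in the other 9. The female NP hippocampus library is incomplete. Of 4481 expressed genes past a point on chromosome 4 and on chromosomes 5 to 9, M, X and Y, 4480 were at 0 there, against 4 of 8581 expressed genes before that point. Of the 10 heat shock genes 6 were counted in all 10 libraries, and Hspa8 (chromosome 9), Hsph1 and Hspb1 (chromosome 5) and Dnajb1 (chromosome 8) were treated as missing from the incomplete library and rest on 9 libraries and 4 LP and NP pairs. Markers matched the labelled regions: all 6 cortex genes were higher in PFC than in HIP, all 7 hippocampus genes were higher in HIP, and all 10 hypothalamus genes were higher in HYP. These are bulk tissues, in which fewer cells of a type and less RNA per cell cannot be told apart.

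Heat shock proteins are chaperones that hold, refold or hand on proteins that have lost their shape. HSP70 binds exposed stretches of unfolded protein in cycles of ATP hydrolysis, J-domain proteins deliver clients and trigger hydrolysis, exchange factors release the nucleotide, and HSP90 takes over late folding of kinases and steroid receptors. When unfolded protein builds up, the transcription factor HSF1 is released from chaperones, forms trimers and binds heat shock elements, which are runs of the unit GAA and its inverse TTC, in front of the inducible genes. In unstressed brain the constitutive genes Hspa8 and Hsp90ab1 are abundant, while Hspa1a and Hspa1b are kept low and are induced by heat, ischaemia and intense activity.

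Offspring of LP parents had more RNA from 6 of the 10 genes, and the differences were largest in the inducible HSP70 genes. Over all pairs the LP against NP difference was 3.73-fold for Hspa1a and Hspa1b summed, 2.57-fold for Hspb1, 1.97-fold for Dnajb1, 1.29-fold for Hsph1 and 1.17-fold for Hspa8. Both HSP90 genes, the mitochondrial Hspe1 and the regulator Hsf1 did not pass the test. Diet was tested within region and sex with edgeR's quasi-likelihood F test, with p-values adjusted by Benjamini-Hochberg over 17547 genes and a threshold of 0.05. Higher in LP at that threshold were 0.849% of all genes tested, 0.359% were lower, and 1.21% were called in either direction. The median difference of the 10 genes was 0.29 on the log2 scale, against -0.00 for all genes, of which the middle 90% lay between -0.33 and 0.35. In every pair they were counted in, 7 of the 10 genes were higher in LP, as were 8.01% of all genes.

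The 250 bases in front of the annotated start are shown for the 6 genes that the RefSeq promoter table (GRCm38.p6) holds, because 5 of them were called by diet and Hspe1 was not. Capitals mark the heat shock element pairs GAANNTTC or TTCNNGAA, which read the same on both strands. All are written 5′ to 3′ on the strand of the gene, so the last base lies next to the start.
Hspa1a: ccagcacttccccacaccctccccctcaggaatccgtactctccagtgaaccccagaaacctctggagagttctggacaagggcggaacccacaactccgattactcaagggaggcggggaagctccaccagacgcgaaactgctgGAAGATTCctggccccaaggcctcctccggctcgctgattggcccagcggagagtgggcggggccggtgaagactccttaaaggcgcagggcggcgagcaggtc
Hspa1b: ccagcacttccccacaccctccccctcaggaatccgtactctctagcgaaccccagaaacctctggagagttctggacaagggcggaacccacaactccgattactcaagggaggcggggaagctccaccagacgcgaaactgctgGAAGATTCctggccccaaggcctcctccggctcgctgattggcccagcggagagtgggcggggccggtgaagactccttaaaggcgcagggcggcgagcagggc
Hsph1: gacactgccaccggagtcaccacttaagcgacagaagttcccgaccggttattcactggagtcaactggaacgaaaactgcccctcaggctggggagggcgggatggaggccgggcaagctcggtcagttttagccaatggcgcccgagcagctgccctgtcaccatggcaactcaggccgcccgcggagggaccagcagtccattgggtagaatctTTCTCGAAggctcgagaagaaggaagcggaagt
Dnajb1: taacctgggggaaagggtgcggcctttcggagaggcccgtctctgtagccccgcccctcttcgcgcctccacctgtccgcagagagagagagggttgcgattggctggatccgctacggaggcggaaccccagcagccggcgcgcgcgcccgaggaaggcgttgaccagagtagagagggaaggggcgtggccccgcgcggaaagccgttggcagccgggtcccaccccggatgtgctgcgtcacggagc
Hspb1: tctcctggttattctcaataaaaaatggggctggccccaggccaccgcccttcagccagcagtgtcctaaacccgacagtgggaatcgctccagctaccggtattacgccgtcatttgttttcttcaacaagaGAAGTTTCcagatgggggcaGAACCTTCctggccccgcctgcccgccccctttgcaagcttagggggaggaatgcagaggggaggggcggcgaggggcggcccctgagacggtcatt
Hspe1: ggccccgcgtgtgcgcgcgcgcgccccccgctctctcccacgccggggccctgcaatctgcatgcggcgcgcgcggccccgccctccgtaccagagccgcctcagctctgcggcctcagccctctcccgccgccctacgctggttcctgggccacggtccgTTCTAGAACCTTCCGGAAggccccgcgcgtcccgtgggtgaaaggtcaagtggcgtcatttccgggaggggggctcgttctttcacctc
They lie at chr17:34972157-34972406 on the minus strand for Hspa1a, chr17:34959239-34959488 on the minus strand for Hspa1b, chr5:149636337-149636586 on the minus strand for Hsph1, chr8:83607925-83608174 on the plus strand for Dnajb1, chr5:135887669-135887918 on the plus strand for Hspb1 and chr1:55087898-55088147 on the plus strand for Hspe1. For Hsph1 and Dnajb1, which have a pair of annotated starts each, the first listed is shown.

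The printed stretches of Hspa1a and Hspa1b had the same base at 247 of 250 positions, and both held 1 element pair, 104 bases before the start. Counted from the printed 5′ end, the Hspa1a base first, they differed by C44T, T47C and T249G. Hspb1 held element pairs 117 and 97 bases before its start. Hsph1 held 1 at 33 bases before its first start and, past the printed part, overlapping pairs at 36 and 41 bases after it that together form the longer match TTCTGGAAAGTTC. Hspe1 held the densest run, with overlapping pairs at 89, 84 and 79 bases before the start. That run contains a pair of overlapping matches of 3 units each, TTCTAGAACCTTC and GAACCTTCCGGAA. Neither start of Dnajb1 had a match in its window, and the window of the second start lies inside the annotated gene. Only exact strings were searched, so looser elements would be missed. Over windows of 300 bases, 250 before and 50 after each start, 15.1% of all 32851 promoters held GAANNTTC or TTCNNGAA, and 0.603% held 3 alternating units in a row. Of the genes called by diet, Hspa1a, Hspa1b, Hsph1 and Hspb1 held matches and Dnajb1 had none. Hspa8, also called, has no entry in the promoter table and was not searched. Hspe1 was not called and had the longest. A link between matches and diet calls was not tested. It cannot be judged from these genes, of which only Hspe1 was not called. A match is a string of letters in the reference and not a measured binding site.

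**Figure D1:**
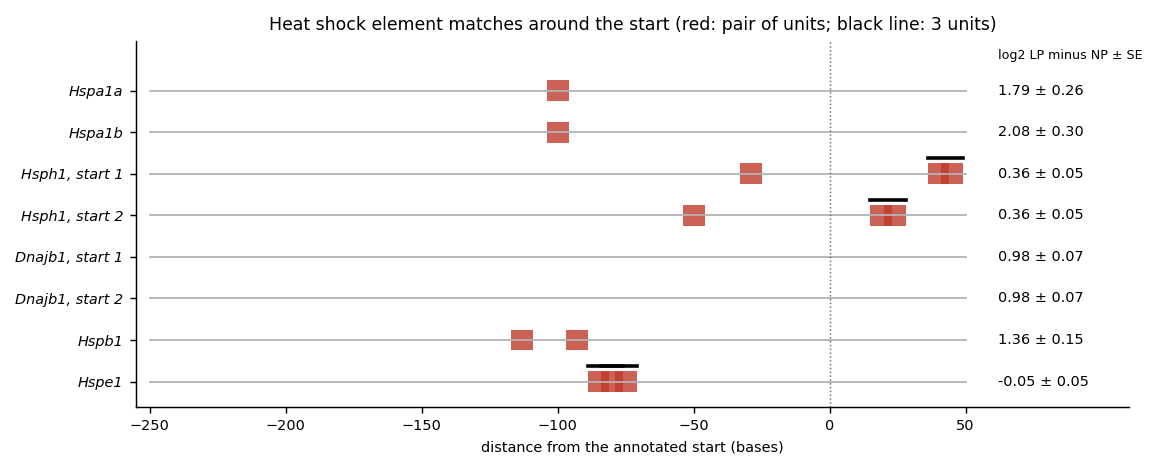
Heat shock element matches in the promoter windows of 6 heat shock genes, by distance in bases from the annotated start (0). Red blocks are pairs of units and black bars are runs of 3 units; the numbers at the right are the LP minus NP log2 difference ± SE over the pairs, from 2.08 ± 0.30 for Hspa1b to -0.05 ± 0.05 for Hspe1, and Dnajb1 (0.98 ± 0.07) has no match at either start.

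Hspa1a (ENSMUSG00000091971) and Hspa1b (ENSMUSG00000090877) lie next to each other on the minus strand of chromosome 17, at 34969190 to 34972156 and 34956436 to 34959238 in GRCm38. Their transcripts were 99.2% identical over 2201 bases, so the split of reads between them is uncertain and they are also given as a sum. Levels are in CPM, counts relative to the library size, which was corrected by the trimmed mean of M values (TMM). In male HYP the summed level was 217 CPM in the LP library and 24.7 CPM in the NP library. In male HIP it was 147 CPM in the LP library and 41.3 CPM in the NP library. In male PFC it was 126 CPM in the LP library and 21.4 CPM in the NP library. The LP libraries of males thus stood far above every NP library of any region. In female HIP the sum was 60.4 CPM in the LP library and 42.9 CPM in the NP library. In female PFC it was 36.8 CPM in the LP library and 19.7 CPM in the NP library. The female LP libraries were above their own NP libraries, but female LP PFC lay below the NP libraries of HIP, so LP and NP overlapped across regions and not within a region.

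The counts behind the sum were 357 to 3662 in the LP libraries and 206 to 496 in the NP libraries, and the exact 95% Poisson intervals of LP and NP were separate in every pair. These intervals cover counting error only. The ratio of LP to NP was 8.74-fold in male HYP, 5.88-fold in male PFC, 3.54-fold in male HIP, 1.87-fold in female PFC and 1.41-fold in female HIP. Over the 5 pairs the sum was higher in LP, with a log2 difference of 1.90 ± 0.28 (SE here and below; adjusted p = 0.00681, edgeR). Hspa1b alone was higher by 2.08 ± 0.30 (adjusted p = 0.00556) and Hspa1a alone by 1.79 ± 0.26 (adjusted p = 0.00638), each in 5 of 5 pairs. An exact permutation test that flips the diet labels within the 5 pairs gave p = 0.0625, two-sided, the smallest it can give. The LP libraries were spread widely: Hspa1b averaged 69.9 ± 42.4 CPM in LP and 16.4 ± 6.81 CPM in NP (SD, n = 5 libraries each).

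The share of the summed count given to Hspa1a was 41.6% in male LP HYP and 52.3% in male NP HYP, with exact 95% binomial intervals of 40.0% to 43.3% and 47.6% to 56.9%. In the other 4 pairs the share was 38.9% to 43.4% in LP and 42.7% to 48.1% in NP. The part of read assignment between the near-identical copies in these shares was not tested. Of 33 tested genes within 250 kb on either side of Hspa1a and Hspa1b, none was called in either direction, where 1.21% of all genes were. At that share 33 genes would hold few calls or none. The median difference of these 33 genes was -0.00 on the log2 scale (range -0.59 to 0.57).

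**Figure D2:**
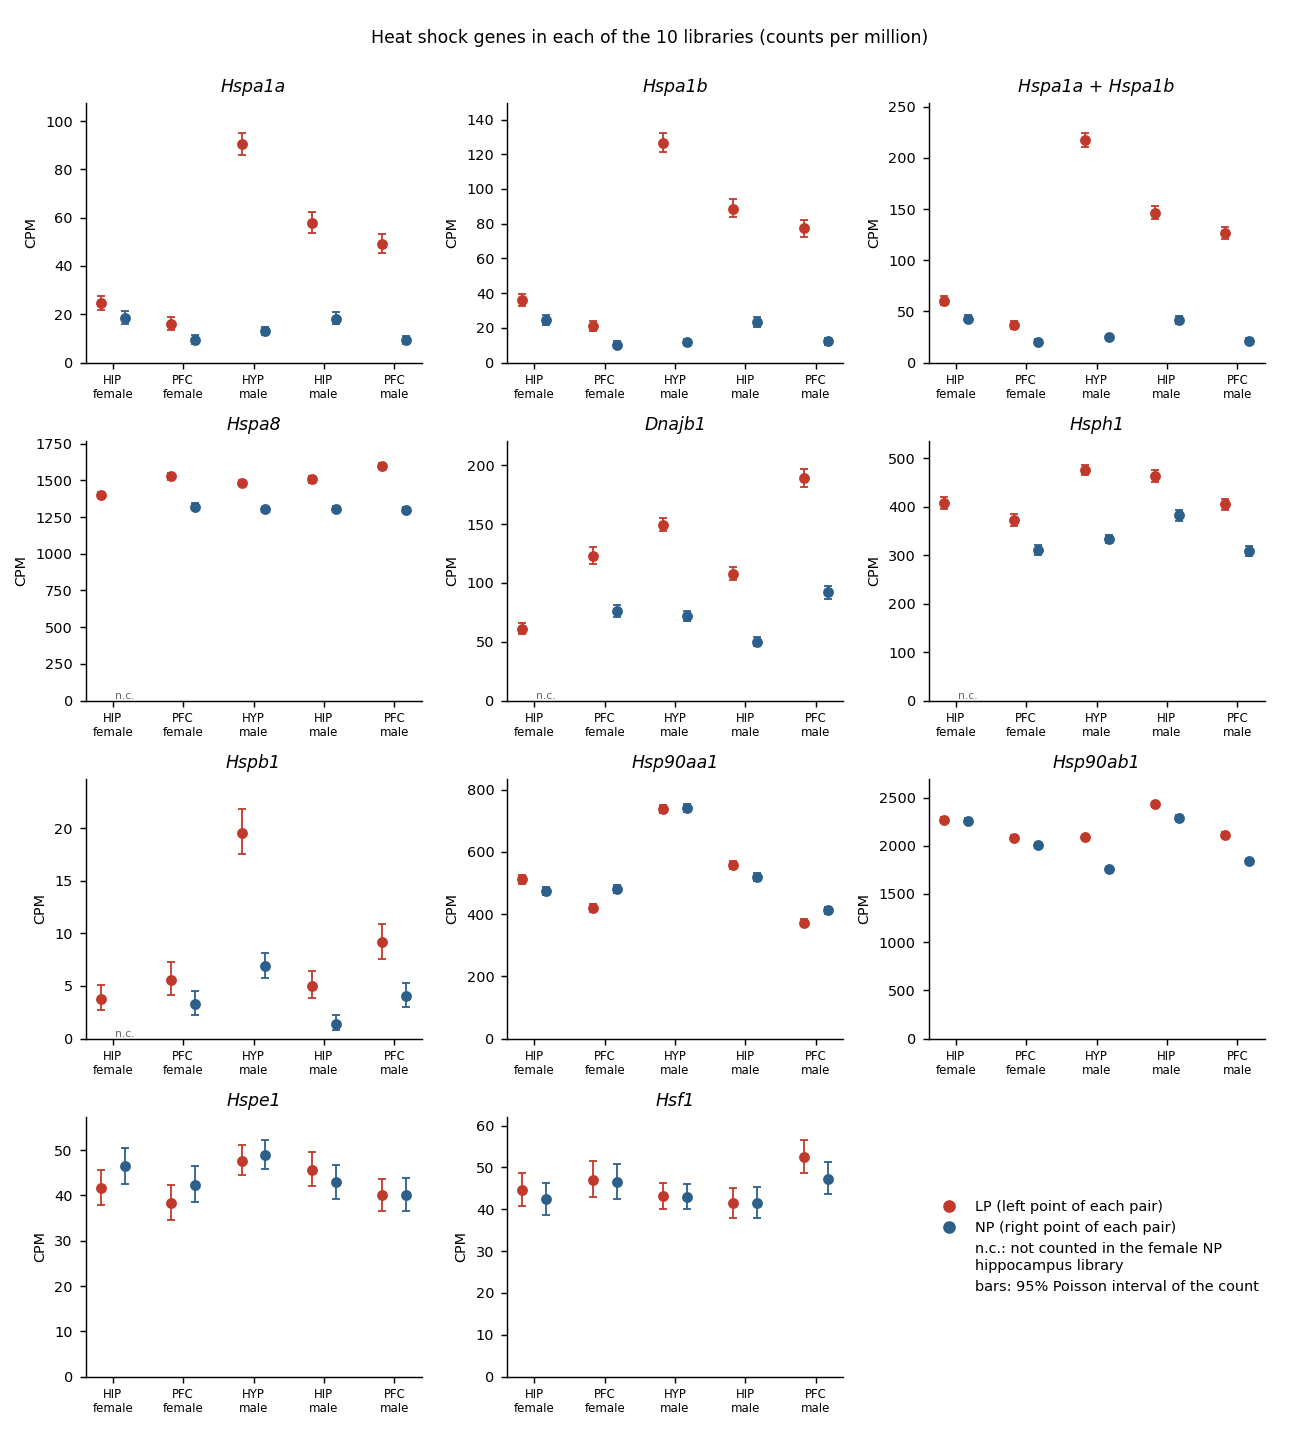
Level of each heat shock gene in CPM (TMM scaled) in the 10 libraries, LP in red at the left and NP in blue at the right of each region and sex; bars are exact 95% Poisson intervals of the count. The sum of Hspa1a and Hspa1b reaches 217, 147 and 126 CPM in the male LP libraries and stays at 19.7 to 42.9 CPM in the NP libraries, while Hspe1 and Hsf1 have overlapping LP and NP intervals in every pair. For Hsp90aa1 LP lies slightly above NP in both HIP pairs and slightly below it in both PFC pairs, with separate intervals.

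Dnajb1 (ENSMUSG00000005483, chromosome 8, 83608193 to 83612653, plus strand) encodes the J-domain protein that feeds clients to inducible HSP70, and it gave the smallest p of the 10 genes. Its LP libraries held 149.7 CPM in male HYP, 108 in male HIP, 189 in male PFC, 61.2 in female HIP and 123 in female PFC. Its NP libraries held 71.8 CPM in male HYP, 50.03 in male HIP, 92.1 in male PFC and 75.9 in female PFC, with female HIP not counted. Within every pair the LP library was the higher one, although the LP library of female HIP lay below the NP libraries of PFC and HYP. The 4 ratios were 2.08-fold, 2.15-fold and 2.05-fold in male HYP, HIP and PFC and 1.62-fold in female PFC. The difference was 0.98 ± 0.07 on the log2 scale (adjusted p = 3.05e-05, edgeR), rank 4 among all genes tested. It was the steadiest of the large changes in the pairs counted: the SD of its pair ratios was 0.19 on the log2 scale over 4 pairs. For the Hspa1a and Hspa1b sum the SD was 1.10 over 5 pairs. These include the female HIP pair, the lowest ratio of the sum, which is missing for Dnajb1.

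Hspb1 (ENSMUSG00000004951, chromosome 5, 135887919 to 135889563, plus strand) encodes a small heat shock protein that holds unfolded protein without ATP and is found in vessel walls and glia as well as in some neurons. It was the rarest member. In LP it had 19.6 CPM in male HYP, 4.99 in male HIP, 9.14 in male PFC, 3.78 in female HIP and 5.57 in female PFC. In NP it had 6.86 CPM in male HYP, 1.42 in male HIP, 4.03 in male PFC and 3.25 in female PFC. Every LP library exceeded its NP partner, but the 17 to 128 counts of the NP libraries made single ratios imprecise, and the counting intervals of the female PFC pair overlapped. Over the pairs Hspb1 was higher in LP by 1.36 ± 0.15 on the log2 scale (adjusted p = 0.000989, edgeR; higher in 4 of 4 pairs). Beside the male HYP value, the summed level of 5 mural cell genes counted in all libraries was 407 CPM in the LP and 198 CPM in the NP library of male HYP, and its LP to NP ratio was 0.817 to 0.917 in the other 4 pairs. Hspb1 itself was 2.22-fold and 3.27-fold higher in LP in male PFC and male HIP. None of 8 mural genes was called by diet over the pairs, none was at 0, and their part in the Hspb1 result was not tested.

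Hsph1 (ENSMUSG00000029657, chromosome 5, 149614287 to 149636376, minus strand), the HSP110 exchange factor that releases ADP from HSP70, changed less. Its LP libraries held 476 CPM in male HYP, 464 in male HIP, 405 in male PFC, 408 in female HIP and 373 in female PFC. Its NP libraries held 334 CPM in male HYP, 382 in male HIP, 309 in male PFC and 311 in female PFC. Every counted pair was higher in LP, and the only overlap between diets was female LP PFC (373 CPM) below male NP HIP (382 CPM). The difference was 0.36 ± 0.05 on the log2 scale (adjusted p = 0.00494, edgeR; 4 of 4 pairs).

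Hspa8 (ENSMUSG00000015656, chromosome 9, 40800984 to 40810087, plus strand) encodes the constitutive HSP70 that also strips clathrin from synaptic vesicles. In LP it had 1483 CPM in male HYP, 1506 in male HIP, 1597 in male PFC, 1399.8 in female HIP and 1528 in female PFC. In NP it had 1301 CPM in male HYP, 1308 in male HIP, 1299 in male PFC and 1321 in female PFC. The diets did not overlap: the lowest LP library was above the highest NP library. The NP libraries were tightly spaced, at 1307 ± 10.1 CPM (SD, n = 4), and the LP libraries averaged 1503 ± 71.7 CPM (SD, n = 5). The change was small, 0.23 ± 0.04 on the log2 scale (adjusted p = 0.0141, edgeR; 4 of 4 pairs). It no longer passed when the male HIP pair (0.23, adjusted p = 0.0880) or the female PFC pair (0.23, adjusted p = 0.154) was left out, with the size of the difference the same to 2 decimals.

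Reads of Hspa8 can also be counted under its processed pseudogenes: 12 near-identical copies in the table, of which 11 had counts, carried together 51.3% of the count of Hspa8 itself. The pseudogene Gm8355 on chromosome 10 (98.7% identical over 1941 bases) is counted in all libraries, and it was higher in LP by 0.17 ± 0.04 on the log2 scale (adjusted p = 0.0462, edgeR), with log2 ratios of 0.11 in male HYP, 0.23 in male HIP, 0.26 in male PFC, 0.08 in female HIP and 0.16 in female PFC. It includes the female HIP pair that Hspa8 itself lacks. The copy Gm6210 on chromosome 6 had a like difference, 0.17 ± 0.04, that did not pass (adjusted p = 0.101). Whether these reads came from Hspa8 or from the copies cannot be read from the counts.

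**Figure D3:**
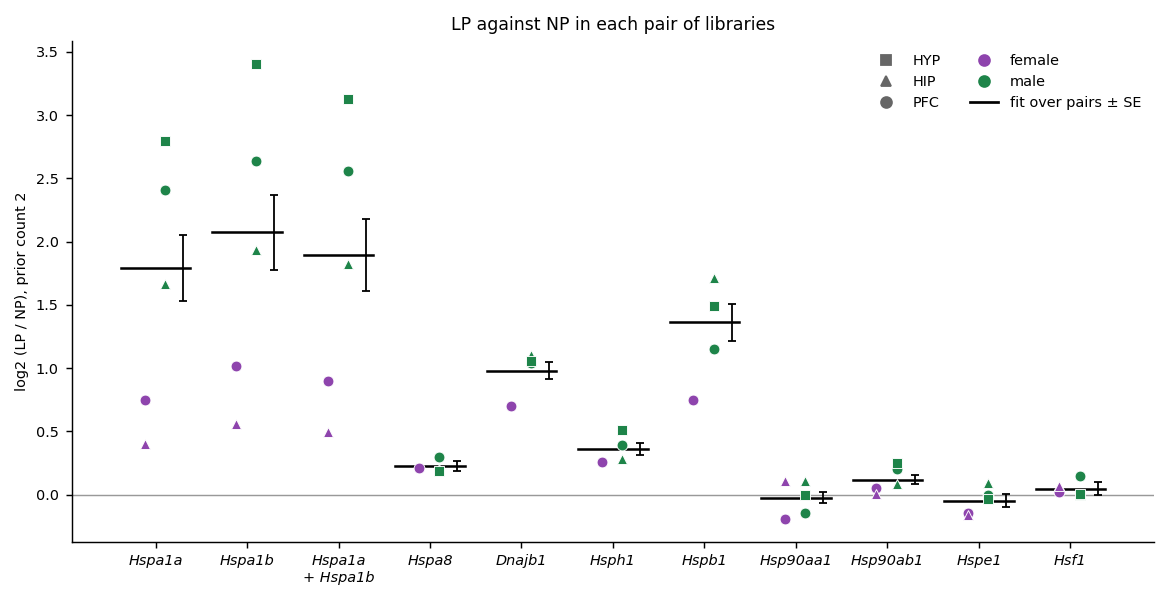
Log2 ratio of LP to NP in each pair of libraries (prior count 2), squares for HYP, triangles for HIP and circles for PFC, females in purple at the left and males in green at the right; black lines are the fitted difference over the pairs with its SE. For Hspa1a, Hspa1b and their sum all 3 male points lie above both female points, and for Hsp90aa1 the HIP points lie above 0 and the PFC points below it.

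The HSP90 genes did not pass. Hsp90ab1 (ENSMUSG00000023944, chromosome 17), the constitutive form, had 2093 CPM in LP and 1759 CPM in NP in male HYP, 2429 in LP and 2289 in NP in male HIP, and 2115 in LP and 1840.1 in NP in male PFC. In females it had 2265 CPM in LP and 2261 CPM in NP in HIP, and 2082 in LP and 2003 in NP in PFC. All 5 pairs were higher in LP, the female HIP pair within counting error, and the difference was 0.12 ± 0.04 on the log2 scale (adjusted p = 0.169, edgeR). Hsp90aa1 (ENSMUSG00000021270, chromosome 12), the stress-inducible form, had 738 CPM in LP and 740.3 CPM in NP in male HYP, 559 in LP and 518 in NP in male HIP, and 373 in LP and 413 in NP in male PFC. In females it had 512 CPM in LP and 474 CPM in NP in HIP, and 420.5 in LP and 480.2 in NP in PFC. Its log2 ratios were 0.11 in both HIP pairs, -0.15 and -0.19 in male and female PFC, and -0.00 in male HYP, and the test of the HIP minus PFC difference did not pass (0.28 ± 0.07, adjusted p = 0.516, edgeR). Over the pairs the difference was -0.02 ± 0.05 (adjusted p = 0.877, edgeR). Its near-identical copies carried 55.9% of its count, and the largest, Gm12346 (99.5% identical), had the same signs as Hsp90aa1 in PFC and HIP, with a difference of -0.05 ± 0.05 over the pairs (adjusted p = 0.737).

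Hsf1 (ENSMUSG00000022556, chromosome 15), which encodes the factor that turns on the inducible genes and is itself controlled mostly after translation, had 43.1 CPM in LP and 43.0 CPM in NP in male HYP, 41.4 in LP and 41.5 in NP in male HIP, and 52.4 in LP and 47.3 in NP in male PFC. In females it had 44.5 CPM in LP and 42.4 CPM in NP in HIP, and 47.1 in LP and 46.4 in NP in PFC. LP and NP libraries were interleaved, and the difference was 0.05 ± 0.05 on the log2 scale (adjusted p = 0.733, edgeR). Hspe1 (ENSMUSG00000073676, chromosome 1), the mitochondrial co-chaperonin, had 47.7 CPM in LP and 48.9 CPM in NP in male HYP, 45.7 in LP and 42.9 in NP in male HIP, and 40.0 in LP and 40.2 in NP in male PFC. In females it had 41.6 CPM in LP and 46.5 CPM in NP in HIP, and 38.3 in LP and 42.3 in NP in PFC. Only male HIP was higher in LP, and the difference was -0.05 ± 0.05 (adjusted p = 0.756, edgeR). An exon of Hspe1 overlaps Hspd1, the gene of its partner HSP60, on the opposite strand, and whether strand was used in counting is not given in the sources used here. Hspd1 differed by 0.08 ± 0.04 (adjusted p = 0.404).

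The other chaperone genes are given by role, beside the 0.849% of all genes that were higher in LP over the pairs. None of 7 other cytosolic HSP70 genes passed over the pairs (median 0.08 on the log2 scale, with Hspa2 at 0.20 ± 0.05, adjusted p = 0.0599). Of 14 J-domain genes 2 rose: Dnajb5 by 0.31 ± 0.05 (adjusted p = 0.00639) and Dnajb4 by 0.25 ± 0.05 (adjusted p = 0.0334), both close relatives of Dnajb1. The broad housekeeping J-domain protein Dnaja1 was at 0.17 (adjusted p = 0.0608), and the list median was 0.01. Among 11 exchange factors and cofactors, Bag3, which links HSP70 to autophagy and to small heat shock proteins, rose by 0.61 ± 0.11 (adjusted p = 0.0210), while the HSP70 to HSP90 adaptor Stip1 was at 0.18 (adjusted p = 0.0807). None of 17 HSP90 co-chaperones passed (median 0.06, with Fkbp4 at 0.22 and adjusted p = 0.0691, and Fkbp5 at 0.30 and adjusted p = 0.0815). Nor did any of 8 subunits of the cytosolic chaperonin CCT (median 0.04), 11 mitochondrial chaperones (median 0.02) or 4 other heat shock factors and their regulators (median 0.01).

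Of 7 further small heat shock genes none passed (median -0.03). Hspb2, a muscle-type member that stayed at or below 1.25 CPM in every library that counted it, had 1.11 ± 0.34 with adjusted p = 0.154. Among 7 genes outside the chaperone families that HSF1 is known to control, Serpinh1 rose by 0.65 ± 0.12 (adjusted p = 0.0280). It encodes the collagen chaperone of the endoplasmic reticulum. The metallothioneins, which bind zinc and copper, pointed down without passing, Mt2 at -0.46 (adjusted p = 0.0602) and Mt1 at -0.29 (adjusted p = 0.130). Serpinh1 had 76.9 CPM in LP and 37.0 CPM in NP in male HYP, and Bag3 had 37.6 CPM in LP and 20.3 CPM in NP there. Both were higher in LP in 4 of 4 pairs, and without the HYP pair Serpinh1 was at 0.39 (adjusted p = 0.0522) and Bag3 at 0.42 (adjusted p = 0.0755). Serpinh1 also did not pass without the male HIP pair (adjusted p = 0.122), without the female PFC pair (0.0793), with no filter on low counts (0.0528) or in the male pairs alone (0.0878). Bag3 also did not pass without the female PFC pair (adjusted p = 0.0859), with DESeq2 (0.0906) or in the male pairs alone (0.0936). The raised mural marker level of the male LP HYP library given above touches both, and its part in them was not tested. Dnajb4 no longer passed without any 1 of the male HIP, female PFC, female HIP or male HYP pairs (adjusted p 0.0730 to 0.162), without the female NP HIP library (0.0826), with DESeq2 (0.103), with no filter on low counts (0.0574) or in the male pairs alone (0.338). Dnajb5 did not pass without the female PFC pair (adjusted p = 0.0515) or in the male pairs alone (0.118).

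**Figure D4:**
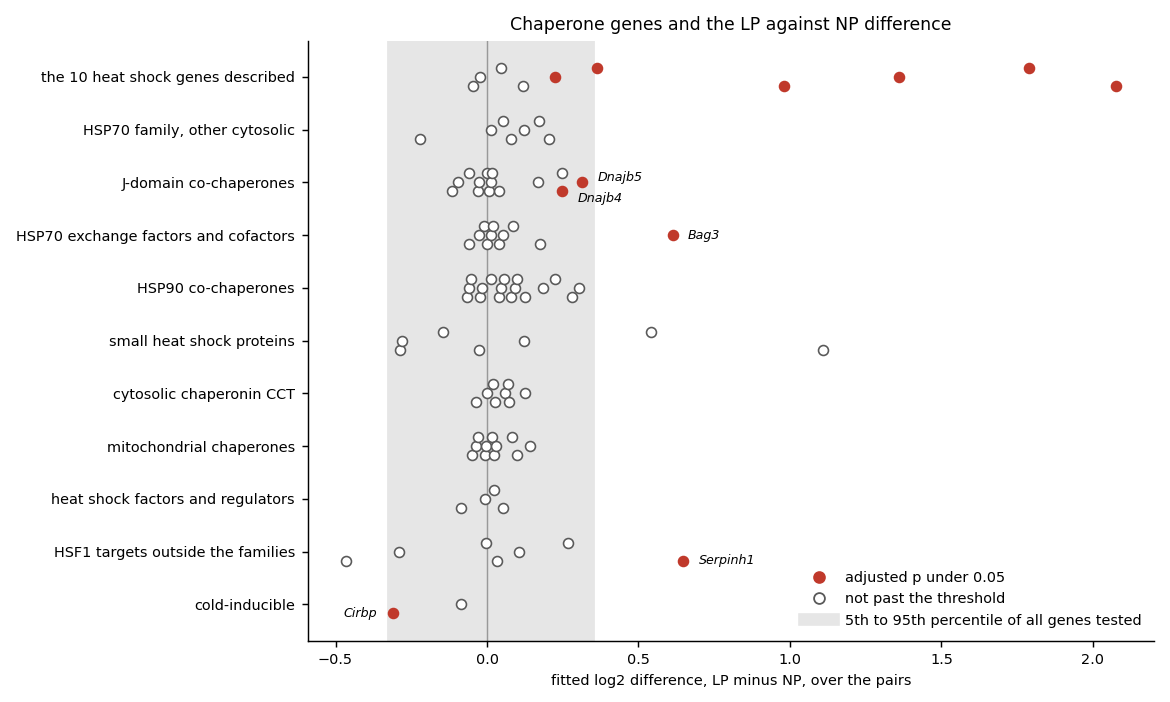
Fitted LP minus NP log2 difference of each tested chaperone gene, by group; filled red points have an adjusted p under 0.05 and the grey band spans the 5th to 95th percentile of all 17547 genes (-0.33 to 0.35). Of the 10 heat shock genes 6 are red, against 2 of 14 J-domain genes, 1 of 11 exchange factors and 1 of 7 other HSF1 targets on the high side, and Cirbp on the low side.

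Other gene groups moved with diet beside the heat shock genes. Cirbp, an RNA-binding protein gene that is induced by mild cold, was lower in LP in 5 of 5 pairs, by 0.31 ± 0.05 on the log2 scale (fitted difference -0.31, adjusted p = 0.00983, edgeR), and without the male HIP pair it was at -0.29 (adjusted p = 0.0598). Its companion Rbm3 was at -0.09 (adjusted p = 0.540). Of 15 immediate early genes, which neurons switch on within minutes of firing, 10 were higher in LP, and all 15 had a positive difference (median 0.60). Their summed level (11 genes counted in all libraries) was 428 to 3919 CPM in LP and 361 to 3392 CPM in NP. Its LP to NP ratio was 1.91 and 1.62 in female PFC and HIP and 1.19, 1.65 and 1.16 in male HYP, HIP and PFC. Male HYP and male PFC had the largest Hspa1 ratios and the smallest ratios of this immediate early sum. The sum is weighted towards abundant genes such as Arc and Egr1, which followed its order. Nr4a2 did not follow it, with 74.8 CPM in LP and 29.2 CPM in NP in male PFC. Each ratio is from 1 pair of libraries, and a link between the Hspa1 and immediate early ratios was not tested. Of 5 blood genes 4 were lower in LP (median -0.61), and the sum of the pair of globin genes counted in all libraries was 179 to 653 CPM in LP and 231 to 971 CPM in NP, with ratios of 0.572 to 0.777 in the 5 pairs. Of 9 oligodendrocyte genes 1, Opalin, was lower (-0.49 ± 0.10, adjusted p = 0.0334; list median -0.31). The summed level of the 6 counted in all libraries was 1076 to 3750.1 CPM in LP and 1257 to 4136 CPM in NP. Of 7 choroid plexus genes Ttr was higher (1.36 ± 0.24, adjusted p = 0.0174), and the summed level of the 5 listed genes counted in all libraries, among them Kcnj13, which was too low to test, was 1.07 to 221 CPM in LP and 2.58 to 116 CPM in NP, with Otx2 at 0 in 3 of the 4 PFC libraries. Of 8 endothelial genes Slc2a1 was higher (0.30 ± 0.05, adjusted p = 0.00955). Of 10 hypothalamus genes 5 were lower in LP (list median -0.63). The summed level of the 8 counted in all libraries was 552 CPM in LP and 909 CPM in NP in male HYP. It was 2.17 to 4.77 CPM in the libraries of PFC and HIP, so the list was carried mostly by 1 pair of libraries. No gene of the astrocyte, microglia or neuron lists passed over the pairs. The part of these shifts in the heat shock results was not tested.

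Within PFC alone, 6 of the 10 genes could be tested, since the fit with a diet term for each region used only genes counted in all libraries. Of these 6, 2 were higher in LP, where 0.796% of 11433 genes were (1.33% in either direction). Hspa1b differed by 2.07 ± 0.31 on the log2 scale (adjusted p = 0.00443, edgeR) and Hspa1a by 1.79 ± 0.31 (adjusted p = 0.0106), and the sum by 1.90 ± 0.30 (adjusted p = 0.00447). This call rests on the male pair: without it the sum was at 0.91 (adjusted p = 0.684), and with DESeq2 or with no filter on low counts it also did not pass (adjusted p = 1.00 and 0.190). In the same PFC comparison 4 of 6 oligodendrocyte genes (median -0.55 on the log2 scale), both blood genes tested (median -0.78) and 1 of 7 neuron genes, Map2 (-0.42 ± 0.06, adjusted p = 0.00164), were lower in LP. There 7 of 11 immediate early genes were higher (median 0.59), as was 1 of 5 endothelial genes. The summed level of the 6 oligodendrocyte genes was 1186 CPM in LP and 1726 CPM in NP in male PFC, and 1076 CPM in LP and 1257 CPM in NP in female PFC, and the part of these shifts in the PFC calls was not tested. Within HIP none of the 6 passed, where 0.271% of genes did (31 genes by edgeR, 11 by DESeq2, and 655 at an unadjusted p under 0.05). The sum was at 1.21 ± 0.26 (adjusted p = 0.0788), Hspa1b at 1.32 ± 0.26 (adjusted p = 0.0551) and Hspa1a at 1.12 ± 0.26 (adjusted p = 0.153), and all of their pairs were higher in LP. In HYP there was 1 pair and no test.

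The diet difference in HIP was not shown to differ from that in PFC. For the sum it was lower in HIP by 0.69 ± 0.40 on the log2 scale (difference -0.69, adjusted p = 0.966, edgeR), and its sign turned without the male PFC pair (0.32). None of the 6 testable genes passed, and 0% of 11433 genes did with edgeR, with DESeq2 also 0 (592 had an unadjusted p under 0.05 with edgeR). The testable gene with the smallest p was Hsp90aa1, whose diet difference was 0.11 ± 0.05 in HIP and -0.17 ± 0.05 in PFC. The HIP minus PFC value given above was rank 15 by p.

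In single pairs 4 of the 10 genes were at least 2-fold higher in LP in male HYP (1.61% of all genes), male HIP (1.27%) and male PFC (1.27%). These were Hspa1a, Hspa1b, Dnajb1 and Hspb1 in each. In female PFC this held for Hspa1b alone (1.39% of all genes), and in female HIP for none of the 6 genes counted (1.18%). In 6 of the 10 genes, Hspa1a, Hspa1b, Hsph1, Dnajb1, Hsp90ab1 and Hspb1, all 3 male ratios were above 0 and above every female ratio, as was the case for 5.91% of all genes. For Hsph1, Dnajb1 and Hspb1 the female side of that count is the PFC pair only.

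The difference between the sexes was tested itself, over the 8 libraries of PFC and HIP. The LP against NP difference of the Hspa1a and Hspa1b sum was smaller in females than in males, with a female minus male value of -1.50 ± 0.20 on the log2 scale (adjusted p = 0.00359, edgeR). For Hspa1b it was -1.53 ± 0.21 (adjusted p = 0.00926) and for Hspa1a -1.46 ± 0.22 (adjusted p = 0.0199). Thus 2 of the 6 testable genes were called lower in the female minus male difference, where 0.0638% of 10973 genes were. Among the genes that went the other way were the immediate early genes Npas4 and Btg2, picked here after their values were seen. Npas4 was at 1.02 ± 0.17 (adjusted p = 0.0403) and Btg2 at 1.18 ± 0.18 (adjusted p = 0.0215). The direction of this difference for the sum held under every alternative run, but the call did not. Its adjusted p was 0.118 without the female NP HIP library, 0.0731 without the female PFC pair, 0.111 without the female HIP pair and 0.899 with no filter on low counts. Over all 10 libraries, with the male HYP pair added, the difference was larger but did not pass (-1.86 ± 0.31, adjusted p = 0.0991; 0.0399% of genes called). In that fit Dnajb1 was at -0.37 ± 0.12 (adjusted p = 1.00) and Hspb1 at -0.68 ± 0.40 (adjusted p = 1.00).

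Sexes were also compared over both diets. Of the 10 genes 1 differed: Dnajb1 was lower in females by 0.58 ± 0.07 on the log2 scale (female minus male -0.58, adjusted p = 0.000629, edgeR), where 0.194% of genes were lower and 0.370% were called. For Dnajb1 this rests on 9 libraries without female NP HIP, so NP compared the sexes in PFC only. Its female and male levels were 75.9 and 92.1 CPM in NP PFC, 123 and 189 CPM in LP PFC, and 61.2 and 108 CPM in LP HIP. The value of the Hspa1a and Hspa1b sum below rests on all 10 libraries, so the sum and Dnajb1 are not on like sets. In the same comparison 11 of 15 immediate early genes were lower in females (median -0.68 on the log2 scale, with Fos at -1.15 ± 0.08 and adjusted p = 1.30e-05), among 34 genes called lower in all, and their part in the Dnajb1 difference was not tested. The Hspa1a and Hspa1b sum was at -0.91 ± 0.22 (adjusted p = 0.120). Leaving out the female NP HIP library brought the sum past the threshold (-1.24, adjusted p = 0.000438), and Dnajb1 did not pass with no filter on low counts (-0.59, adjusted p = 0.0745).

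Levels between genes were compared per kilobase of exon, with all annotated exons of a gene merged. This length can exceed that of a transcript, as for Hspe1 with 1474 bases against 774 in its longest coding transcript. Reads counted under near-identical copies, 51.3% of the count of Hspa8 and 55.9% of that of Hsp90aa1, are not included. The order of the genes depends on both. The median over libraries was 701 CPM per kilobase for Hsp90ab1, 325 for Hspa8, 126 for Hsp90aa1 and 52.6 for Hsph1. Hspe1 (28.9) and Dnajb1 (28.7) followed, then Hspa1b (8.47), Hspa1a (6.18), Hsf1 (6.17) and Hspb1 (4.84). The ranges over libraries of Hsp90ab1, Hspa8, Hsp90aa1 and Hsph1 did not cross one another. The range of Dnajb1, 15.6 to 59.1, crossed those of Hsph1, Hspe1 and Hspa1b beside it in this order, and the ranges of the 4 lowest genes crossed each other. The rarer inducible genes varied most: the highest library was 13.8 times the lowest for Hspb1, 12.4 times for Hspa1b, 9.90 times for Hspa1a and 3.78 times for Dnajb1. For the other genes it was 1.99 times for Hsp90aa1 and 1.23 to 1.54 times for Hspa8, Hsf1, Hspe1, Hsp90ab1 and Hsph1.

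**Figure D5:**
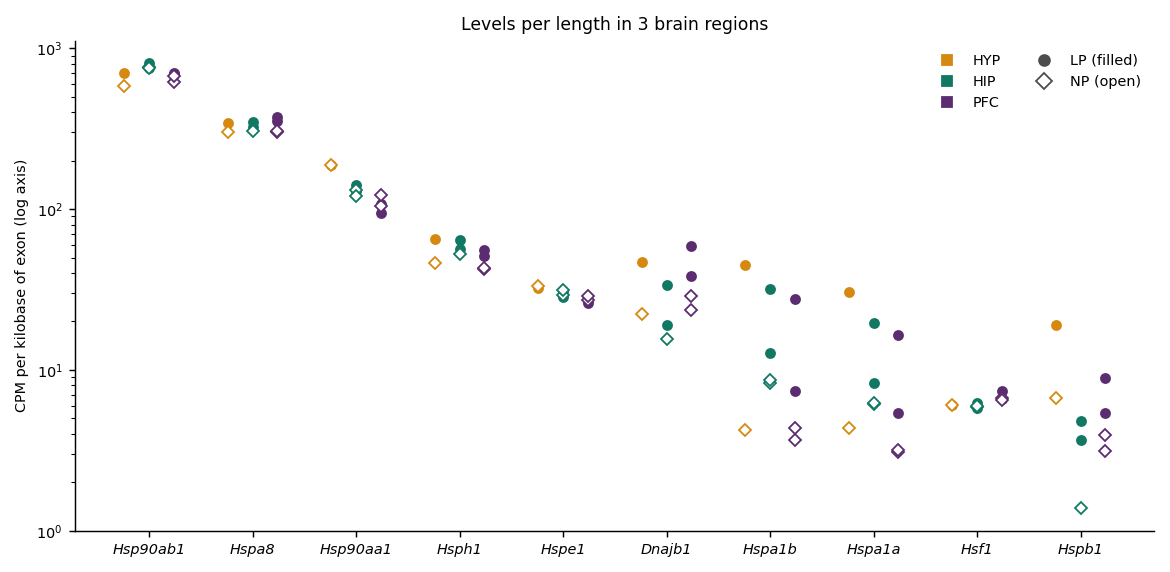
CPM per kilobase of exon (log axis) of each heat shock gene in HYP, HIP and PFC, one point per library, LP filled and NP open, with genes ordered by their median from Hsp90ab1 (701) to Hspb1 (4.84). The points of Hspa1a, Hspa1b, Dnajb1 and Hspb1 spread widely, and those of Hspa8, Hspe1 and Hsf1 lie close together.

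Regions differed in 4 to 6 of the 10 genes, shares close to those of all genes or below them. In HIP against PFC 6 of the 10 were called, where 53.3% of all genes were. Dnajb1 was at 73.0 ± 30.6 CPM in HIP (SD, n = 3) and 120.1 ± 50.1 CPM in PFC (SD, n = 4), a difference of -0.94 ± 0.08 on the log2 scale (adjusted p = 2.57e-07, edgeR). Hspb1 was also lower in HIP (-0.94 ± 0.19, adjusted p = 0.000773), as was Hsf1 (-0.19 ± 0.06, adjusted p = 0.0133). Higher in HIP were Hsp90aa1 (0.29 ± 0.07, adjusted p = 0.00213), Hsp90ab1 (0.20 ± 0.04, adjusted p = 0.00136) and Hsph1 (0.19 ± 0.06, adjusted p = 0.00955). The count of 6 was 2, Dnajb1 and Hsp90ab1, without the male PFC pair and 1, Dnajb1, without the male HIP pair.

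Hypothalamus, sampled in males only, carried the highest Hsp90aa1 level, 739 ± 1.32 CPM (SD, n = 2), against 515 ± 34.9 CPM in HIP and 421 ± 44.4 CPM in PFC (SD, n = 4 each). The log2 difference was 0.54 ± 0.09 from HIP (adjusted p = 9.73e-05, edgeR) and 0.83 ± 0.09 from PFC (adjusted p = 1.48e-06). Hspb1 was highest there as well, at 13.2 ± 8.98 CPM (SD, n = 2), against 3.40 ± 1.82 CPM in HIP (SD, n = 3) and 3.25 to 9.14 CPM in the 4 libraries of PFC. It was higher by 1.96 ± 0.18 than in HIP (adjusted p = 3.79e-07) and by 1.02 ± 0.16 than in PFC (adjusted p = 7.14e-05). In HYP against HIP 4 of the 10 were called, where 60.3% of genes were, and in HYP against PFC 6, where 63.7% were. Dnajb1 in HYP lay between the other regions, at 0.54 ± 0.09 against HIP (adjusted p = 0.000172) and -0.40 ± 0.09 against PFC (adjusted p = 0.00156). Hsp90ab1 was lower in HYP than in HIP (-0.27 ± 0.06, adjusted p = 0.00111), and Hspe1 higher in HYP than in PFC (0.26 ± 0.07, adjusted p = 0.00590).

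These hypothalamic values depend on the scaling. With library totals in place of TMM the median of all genes moved up by 0.26 (HYP against HIP) and 0.27 (HYP against PFC) on the log2 scale. With totals Hsp90ab1 in HYP against HIP was at -0.00 (adjusted p = 0.947), Dnajb1 in HYP against PFC was at -0.15 (adjusted p = 0.147), and Hsf1 in HYP against PFC turned from -0.18 ± 0.07 (adjusted p = 0.0471) to 0.10 (adjusted p = 0.269). Hspa1a was called higher in HYP than in PFC (0.81 ± 0.32, adjusted p = 0.0422), but Hspa1b and the sum were not (0.62 ± 0.37, adjusted p = 0.164, and 0.69 ± 0.36, adjusted p = 0.112), and the Hspa1a call was lost with DESeq2 (adjusted p = 0.253) and without the male PFC pair (1.11, adjusted p = 0.129).

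Across libraries the genes did not form a single block. As a description over 9 libraries, which share regions, diets and depth, Pearson's correlation of log2 CPM was 0.95 between the Hspa1a and Hspa1b sum and Hsph1, 0.82 between Hspa8 and Dnajb1 and 0.80 between Dnajb1 and Hspb1. Over all 10 libraries, Hsp90aa1 went instead with Hspe1 (0.86), and Hsf1 was at -0.07 with the sum and -0.72 with Hspe1. Among 7061 other genes with a mean of at least 10 CPM and counts in all 10 libraries, those most like the sum were Crkl (0.915), Alkbh5 (0.9005), 1810013L24Rik (0.871), Dpf2 (0.853) and Rps3a3 (0.838). Among 10704 genes over 9 libraries, those most like Dnajb1 were Gpr19 (0.947), the Hspa8 pseudogenes Gm6210 (0.911) and Gm8355 (0.910), Ddx39b (0.898) and Dcun1d3 (0.897).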

How the data were processed

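The table of whole-number counts was deposited without normalization, with a column for each library and Ensembl gene IDs. RNA was extracted with a mirVana kit and libraries were made with a TruSeq RNA kit from total RNA, per the labels' protocols. The submitters' processing notes name CASAVA, FastQC 0.10.1, STAR 2.5.0a and the build mm10. How reads were counted, with or without strand, and what was done with reads of repeated sequence is not given in the sources used here.

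Gene IDs were matched to GENCODE annotation (47310 of 47729) for names and GRCm38 coordinates. Genes were kept by filterByExpr (minimum count 10) and tested with the quasi-likelihood F test of edgeR 4.0.16 in R 4.3.3 after TMM scaling. The 28131 genes counted in all libraries were fitted on 10 and the other 19598 on 9, and p-values were adjusted together by Benjamini-Hochberg. CPM of the incomplete library was scaled on the genes counted in all, since 33.8% of counts in the complete libraries lie on genes it lacks. A count of 0 lies below 3 counts, or 0.184 to 0.381 CPM over a library's raw total. The levels given here are relative to TMM-scaled sizes, on which this floor differs. Diet was fitted with region and sex as strata, so each LP and NP pair is its own block (4 residual degrees of freedom with 10 libraries). Tests between regions had additive sex and diet terms, and tests between sexes had a term for each region and diet. Single pairs are log2 ratios with a prior count of 2. Near-identical copies were found with blastn 2.17.0 (at least 90% identity over 200 bases).

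The genes and lists were chosen with earlier results of these data known. The naming rule takes all 10 genes, up to 4 genes with the smallest p of each list, any list gene past the threshold, and the 5 genes most correlated with the Hspa1 sum and with Dnajb1. The scripts were tested on simulated data. DESeq2 1.42.0, other scalings, filters and left-out libraries were the alternatives, and 2 of them, the male pairs alone and the sex difference over all 10 libraries, were added after seeing the data.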

Additional observations from a re-analysis of the deposited data

Results flagged for a closer look

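The LP against NP difference was smaller in females than in males for the inducible HSP70 genes by a test of the difference itself, with female minus male values of -1.46 for Hspa1a, -1.53 for Hspa1b and -1.50 for their sum on the log2 scale. In the pairs of that test the sum was 1.87-fold and 1.41-fold higher in LP in female PFC and HIP, and 5.88-fold and 3.54-fold higher in LP in male PFC and HIP. The call for the sum (adjusted p = 0.00359, edgeR) was lost without the female NP HIP library (adjusted p = 0.118), without the female PFC pair (0.0731), without the female HIP pair (0.111), with no filter on low counts (0.899) and over all 10 libraries with the male HYP pair added (0.0991).

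For Hsp90aa1 both HIP pairs were higher in LP and both PFC pairs were lower. The mean log2 ratio was 0.28 higher in HIP than in PFC, and the fitted test of that difference did not pass (adjusted p = 0.516, edgeR).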

How the results depend on the processing

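Over the 5 pairs 6 genes were called, and their number was 5 to 6 with 1 pair left out. It was 0 when the zeros of the incomplete library were kept as counts, a setting that is not valid for the 4 genes it lacks, and no gene called over the pairs changed sign in 90 alternative values. Within PFC the 2 calls became 0 with DESeq2, 0 with no filter on low counts, 6 with the female NP HIP library left out (all 10 genes are then testable) and 0 to 6 with 1 pair left out. Within HIP the 0 calls became 1 with library totals, 1 with a minimum count of 30, 4 without the female NP HIP library and 0 to 4 with 1 pair left out. The HIP minus PFC diet difference gave 0 calls, and 0 to 2 with 1 pair left out. The female minus male diet difference gave 2 calls, 0 with no filter, 0 without the female NP HIP library, 0 over all 10 libraries and 0 to 2 with 1 pair left out. HIP against PFC gave 6 calls and 1 to 8 with 1 pair left out, HYP against HIP 4 calls, 7 with library totals and 3 to 4 with 1 pair left out, and HYP against PFC 6 calls and 3 to 7 with 1 pair left out. Female against male gave 1 call, 0 with no filter, 3 without the female NP HIP library and 0 to 3 with 1 pair left out. The cause of these changes was not tested beyond the number of testable genes. Signs turned in some values, 1 of them called (Hsf1 in HYP against PFC, below): the diet difference of Hsp90aa1 turned to 0.0068 without the male PFC pair and 0.018 without the female PFC pair (range with 1 pair left out -0.056 to 0.018), and that of Hspe1 to 0.015 in the male pairs alone. In the female minus male difference Hsp90aa1 turned to 0.11 without the male HIP pair and 0.12 without the female PFC pair (range -0.17 to 0.12), and Hsf1 to 0.045 without the male PFC pair (range -0.11 to 0.045). The HIP minus PFC difference of the Hspa1 sum, -0.69, turned to 0.32 without the male PFC pair (range -1.40 to 0.32). In HYP against HIP the sum turned to -0.055 with DESeq2 and -0.43 without the male HIP pair (range -0.43 to 0.16), and Hsf1 in HYP against PFC turned from -0.18 to 0.10 with library totals. The pairing by region and sex is part of the diet test, and with additive region, sex and diet terms in its place 6 genes were called. Over all genes the 212 called over the pairs became 111 with DESeq2, 72 and 86 without the female PFC and male HIP pairs, 78 in the male pairs alone and 1 with the zeros kept. The 152 called in PFC became 13 with DESeq2, 21 with no filter, 245 with library totals and 780 without the female NP HIP library, and the 31 in HIP became 11, 5 and 122 with DESeq2, no filter and that library left out. The 0 of the HIP minus PFC difference became 1 with the earlier edgeR method and 52 without that library. The 19 of the female minus male difference became 12 with DESeq2, 0 with no filter and 7 over all 10 libraries, and the 65 between the sexes became 24 with DESeq2 and 23 with no filter. With 1 pair left out the ranges were 48 to 775 in PFC, 0 to 52 for HIP minus PFC, 5 to 199 for female minus male and 13 to 265 between the sexes.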
